A study of Drosophila melanogaster with 17 samples.

Results

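Periodate oxidation removes small RNAs whose 3′ end is unmodified from a sequencing library and leaves those with a 2′-O-methyl group, and its effect was read here for each miRNA isoform, defined as 1 arm of a hairpin at 1 read length. The comparison used 8 oxidised and 8 unoxidised libraries, 16 of the 17 libraries of the series. All came from wild-type Drosophila Schneider 2 (S2) cells, a line of embryonic origin, given 500 µM 4-thiouridine (s4U) for 0.25, 0.5, 1, 3, 6, 12 or 24 h, or sampled at 0 h without s4U. RNA of all 16 libraries was alkylated with iodoacetamide (IAA). Each RNA was then divided into an oxidised portion (treated with NaIO4) and an unoxidised portion, so that libraries of the same labelling time form 8 pairs. The remaining library had neither s4U nor IAA and served only to set the reference length of each arm, the most frequent length there. Members were the arms listed with the same start in the mismatch tables of both groups. These were 84 of the 146 arms listed in either table, and 80 were kept after 1 copy of each identical arm was retained, 48 guides (the more abundant arm of a hairpin) and 32 passengers. The 8 libraries of a group are 8 times and not repeats of a time, so p-values measure the spread between these pairs.

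A miRNA duplex releases a guide that stays in an Argonaute protein and a passenger that is usually discarded. In flies most guides sit in Argonaute1 with an unmodified 3′ end, whereas RNAs sorted into Argonaute2 receive a 2′-O-methyl group from the methyltransferase Hen1. The 3′ end of a guide is not fixed. The exonuclease Nibbler shortens some guides after loading, and terminal transferases add bases, so 1 arm gives reads of several lengths that share the seed and differ at the 3′ end.

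The sequences on which the results turn are shown from their 5′ end as the deposited hairpins give them, in T. In bantam-3p, miR-275-3p and miR-304-5p the capitals mark the bases beyond the length up to which reads were kept best after oxidation.
bantam-3p: tgagatcattttgaaagctgATT
miR-275-3p: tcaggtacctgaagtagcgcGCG
miR-304-5p: taatctcaatttgtaaatgtgAG
In the K-box guides miR-2a-1-3p and miR-2b-1-3p the capitals begin where the arms start to differ, after 18 shared bases.
miR-2a-1-3p: tatcacagccagctttgaTGAGCT
miR-2b-1-3p: tatcacagccagctttgaGGAG
In miR-305-5p, miR-34-5p, miR-277-3p and miR-263a-5p the capitals mark the 3′ bases that the most depleted short isoform of the arm lacks.
miR-305-5p: attgtacttcatcaggtgctcTGG
miR-34-5p: tggcagtgtggttagctggttGTG
miR-277-3p: taaatgcactatctggtacgaCA
miR-263a-5p: aatggcactggaagaattcacgGG
On the dm6 build the hairpins lie at chr3L:642208-642288 (bantam, plus strand, in a noncoding RNA exon), chr2L:7425795-7425892 (mir-275, plus, in a noncoding RNA exon), chrX:15508959-15509046 (mir-304, plus, in an intron of Gmap), chr2L:19569897-19569972 (mir-2a-1, minus, in an intron of spi) and chr2L:8258616-8258692 (mir-2b-1, minus, in an exon of Btk). Those of mir-305 (chr2L:7425972-7426044, plus, in no annotated gene), mir-34 (chr3R:10100936-10101034, plus), mir-277 (chr3R:10100022-10100121, plus) and mir-263a (chr2L:11953410-11953503, minus) follow, the last 3 in noncoding RNA exons.

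Oxidised libraries held 19074278 to 42511487 small RNA reads and unoxidised ones 19041816 to 24665859. Reads on miRNAs made up 7.27% to 13.2% of the small RNA reads in oxidised libraries and 51.3% to 56.4% in unoxidised libraries. Abundance is given in RPM, the reads of an isoform scaled to the total of small RNA reads in the library, and the ratio at a length is the oxidised over the unoxidised mean RPM in percent. Since other small RNAs fill more of the oxidised libraries, 100% is not a fixed point, and only ratios of isoforms to each other are independent of this scaling. The 6 S2 marker arms summed to 7926 to 37649 RPM in oxidised and 286734 to 326477 RPM in unoxidised libraries. Of 7 markers of other cell types, 3 were listed in the oxidised and 6 in the unoxidised length table, summing to 2.55 to 14.1 RPM in oxidised and 3.15 to 4.81 RPM in unoxidised libraries.

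Oxidation changed the length profile of most arms, and in more of them the reads that remained were shorter. The mean read length was longer after oxidation in 16 of the 80 arms (20% of those tested) and shorter in 42 (52.5%), so that 72.5% were called (limma, labelling time as a block, Benjamini-Hochberg adjusted p under 0.05). The median difference was −0.15 nt and the range −2.46 to 1.06 nt. In 38 arms the 8 oxidised values did not overlap the 8 unoxidised ones. Of the 48 guides 10 were longer, 28 shorter and 10 not past the threshold (median −0.21 nt), and of the 32 passengers 6 were longer, 14 shorter and 12 not past it (median −0.12 nt). Of the 43 arms from the 5′ side of the hairpin 12 were longer and 17 shorter, and of the 37 from the 3′ side 4 were longer and 25 shorter. The most frequent length moved down in 18 arms, up in 4 and stayed in 58. Taking reads of 20 to 25 nt alone, 20 arms were longer and 49 shorter of 79 tested. Several guides then differed much less, such as miR-308-3p (−0.42 nt, beside −2.27 nt), miR-2b-1-3p (−0.42 nt, beside −1.85 nt), miR-14-3p (−0.46 nt, beside −1.81 nt), miR-317-3p (−0.43 nt, beside −1.61 nt), miR-9b-5p (−1.08 nt, beside −2.03 nt) and miR-276a-3p (−0.35 nt, beside −0.75 nt).

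**Figure D1:**
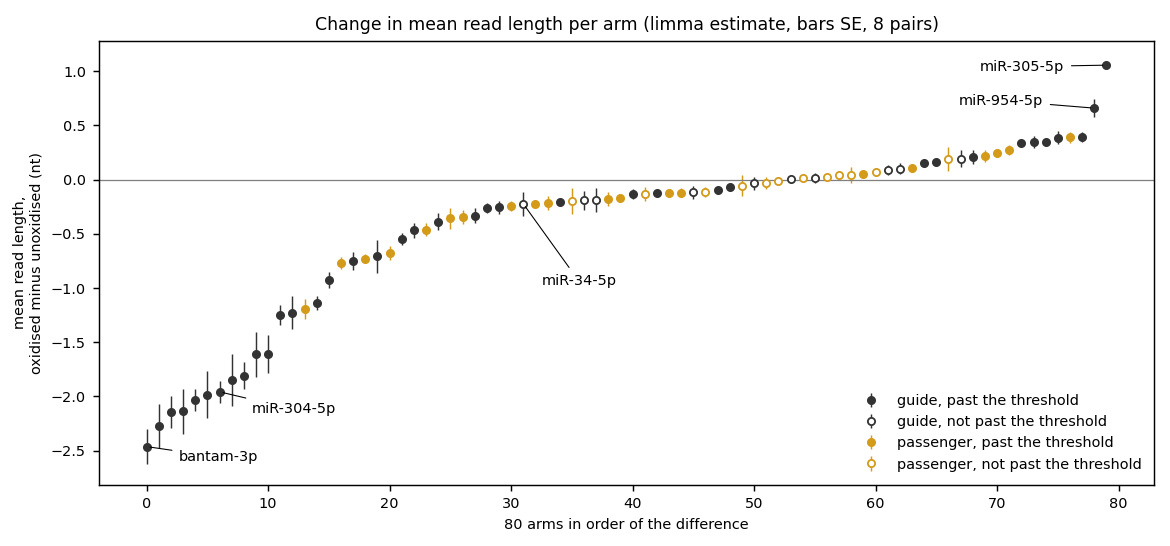
Difference in mean read length (nt, oxidised minus unoxidised) for the 80 arms in order, with SE over 8 pairs. Guides are dark, passengers yellow, and open symbols did not pass the threshold. The arms from bantam-3p (−2.46 nt) to miR-13b-2-3p (−1.61 nt) at the left are all guides, and miR-305-5p (1.06 nt) is at the right end.

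The 8 largest decreases in mean length were in guides that oxidation depleted, with 0.477% to 3.23% of their RPM left. Bantam-3p, which represses apoptosis genes and was the most abundant arm, had a lowest, median and highest mean length of 19.5, 20.1 and 20.9 nt in the oxidised libraries, against 22.5, 22.6 and 22.7 nt in the unoxidised ones. No oxidised library reached an unoxidised one, and the difference was −2.46 ± 0.16 nt (SE, adjusted p = 2.41e-06, shorter in 8 of 8 pairs). With reads of 20 to 25 nt alone it was −0.84 nt (adjusted p = 3.65e-05), so reads of 18 and 19 nt carried most of it. Its 23 nt isoform, the full-length form, had 396, 618 and 683 RPM (lowest, median, highest) in the oxidised libraries and 90388, 96748 and 114483 RPM in the unoxidised ones, a ratio of 0.563%. The 22 nt isoform stood at 0.666% and the 21 nt isoform at 2.50%. At 20 nt the ratio was 30.0%, at 19 nt 57.6% and at 18 nt 105%. The 18 nt isoform had 291, 688 and 1390 RPM in the oxidised libraries and 111, 404 and 2192 RPM in the unoxidised ones, so these groups overlapped. Its abundance did not pass the test (log2 0.67 ± 0.57, limma adjusted p = 0.295, higher in 6 of 8 pairs), but rose when scaled to miRNA reads (log2 3.20, limma adjusted p = 0.000526) or with TMM (log2 2.96, edgeR adjusted p = 1.48e-05), and the ratio ran from 13.3% to 700% between pairs and was 167% without the 6 h pair. Within the arm the 18 nt form held 24.2% ± 5.54 of the oxidised and 0.431% ± 0.414 of the unoxidised reads (SD, n = 8), a log2 change in odds of 6.79 ± 0.55 (limma, adjusted p = 2.99e-06). Of the 1.95% of bantam-3p RPM left after oxidation, more came from 18 to 20 nt reads than from the 23 nt form.

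**Figure D2:**
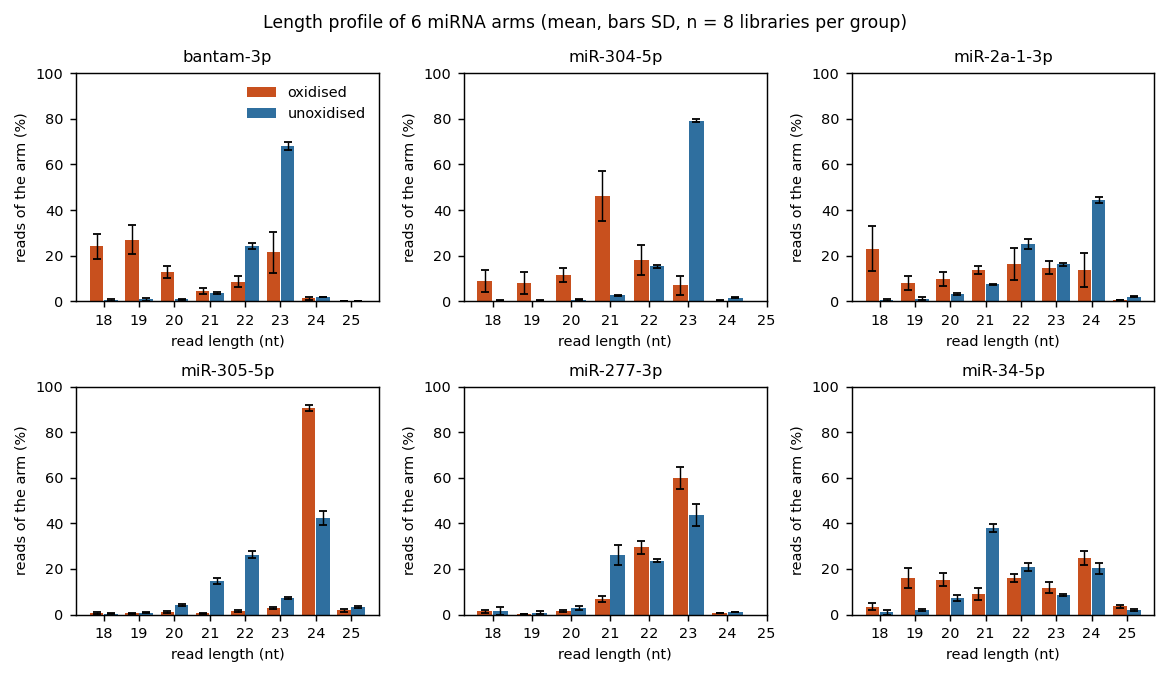
Share of each arm's reads (%) at 18 to 25 nt in the oxidised (left bar) and unoxidised (right bar) libraries, mean with SD over 8 libraries. In bantam-3p, miR-304-5p and miR-2a-1-3p the reads moved to 18 to 21 nt, whereas miR-305-5p kept 90.5% at 24 nt against 42.5% unoxidised. The 18, 19 and 20 nt reads of miR-2a-1-3p are also counted under other arms.

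The other 7 guides with the largest decreases also had full-length reads at or below 1% and short reads far higher. In miR-2a-1-3p this rested mostly on short reads that are also counted under other arms. With such shared reads left out, its highest ratio was 6.14 times its lowest, and that of miR-2b-1-3p 27.1 times. In miR-304-5p the step lay between 21 and 23 nt. Its 21 nt isoform had 7.50, 20.3 and 41.3 RPM in oxidised and 38.9, 51.8 and 60.3 RPM in unoxidised libraries, and its 23 nt isoform 0.682, 2.68 and 4.59 RPM in oxidised and 1199, 1594 and 1687 RPM in unoxidised libraries. The groups overlapped at 21 nt and were far apart at 23 nt. The ratio was 39.4% at 21 nt, 2.84% at 22 nt and 0.175% at 23 nt. The 21 nt share of the arm was 46.1% oxidised and 2.58% unoxidised, and the 23 nt share 6.97% and 79.1% (log2 odds −5.58 ± 0.29, limma adjusted p = 3.31e-07). EdgeR with the arm total as offset, which compares shares and not odds, gave −3.71.

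MiR-275-3p, which is transcribed next to miR-305, kept its 18 nt reads best. That isoform had 10.4, 61.8 and 91.6 RPM in oxidised and 35.4, 65.8 and 181 RPM in unoxidised libraries (64.6%), and overlapped between the groups. At 20 nt the ratio was 11.4%, at 21 nt 0.874% and at 23 nt 0.750%. The mean length of the arm differed by −2.14 ± 0.21 nt (adjusted p = 2.26e-05), and by −0.68 nt for reads of 20 to 25 nt. MiR-9b-5p had peaks at both 18 and 21 nt in the oxidised libraries, with 29.0% and 45.0% of its reads, against 1.25% and 6.80% unoxidised. Its 22 nt form, 46.3% of the unoxidised reads, had a ratio of 0.156%, below the 0.519% of the 23 nt form. MiR-7-5p, a regulator of Notch targets and of eye development, kept 69.7% at 18 nt, 72.4% at 20 nt, 16.8% at 21 nt and 0.921% at 24 nt. By mean share 24 nt was its most frequent length in both groups, at 21.3% oxidised and 71.7% unoxidised. Among the oxidised libraries the 24 nt form led only at 3, 6 and 24 h. The 23 nt form led at 0, 1 and 12 h, the 21 nt form at 0.25 h and the 20 nt form at 0.5 h.

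MiR-308-3p, from an intron of the ribosomal protein gene RpS23, had 66.6% of its oxidised reads at 19 nt, against 4.31% of its unoxidised reads. These 19 nt reads were also depleted, with a ratio of 7.86%, but the 22 nt form was at 0.0589%, or 1.23 RPM oxidised and 2082 RPM unoxidised (0.0380% without the 1 h pair). MiR-14-3p, which limits cell death, had a ratio of 25.2% at 19 nt (40.1% without the 6 h pair), 0.711% at 20 nt, 2.10% at 21 nt and 0.171% at 22 nt, so that the ratio did not fall evenly with length. The oxidised 0 h library stood apart for miR-14-3p, with 7.17 RPM at 19 nt beside a median of 244 RPM over the oxidised libraries.

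The K-box guides, which pair with the K box motif of Notch target transcripts, shared the seed ATCACAG in all 6 measured of 11 listed. Of the 6, 5 were shorter (83.3%, beside 52.5% of all 80 arms), none was longer (beside 20% of all arms) and miR-11-3p did not pass. The median was −1.73 nt, and −0.68 nt with reads shared between arms left out, beside −0.15 nt over all 80 arms. MiR-2a-1-3p differed by −1.98 ± 0.22 nt and miR-2b-1-3p by −1.85 ± 0.24 nt (adjusted p = 4.05e-05 and 0.000103). Their 18 nt reads are the same molecules counted under each arm, as the shared bases above show, and also under miR-2c-3p, whose 19 and 20 nt reads are in turn those of miR-2a-1-3p. These 18 nt reads had 16.1, 139 and 287 RPM in oxidised and 25.4, 92.3 and 444 RPM in unoxidised libraries. With reads shared between arms left out, the differences were −0.61 nt for miR-2a-1-3p, −0.68 nt for miR-2b-1-3p and −0.69 nt for miR-2c-3p, all past the threshold. Few oxidised reads of miR-2c-3p were then left. In the oxidised 0 h library, 16.1, 8.30 and 13.9 of its 38.6 RPM were shared reads of 18, 19 and 20 nt. The call of miR-2c-3p thus rests on few reads or, with shared reads kept, mostly on molecules also counted under miR-2a-1-3p. MiR-13b-2-3p, which shared no reads with another arm kept here, had a ratio of 37.8% at 19 nt and 0.944% at 23 nt. MiR-11-3p behaved otherwise, with a ratio of 16.2% at 22 nt, 6.77% at 21 nt and 5.50% at 20 nt, and a mean length of 21.7 ± 0.132 nt oxidised and 21.5 ± 0.188 nt unoxidised (difference 0.19 nt, adjusted p = 0.0559). It passed without the 12 h pair (adjusted p = 0.0433), without the 24 h pair (0.0350) and with reads of 20 to 25 nt alone (3.54e-05).

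**Figure D3:**
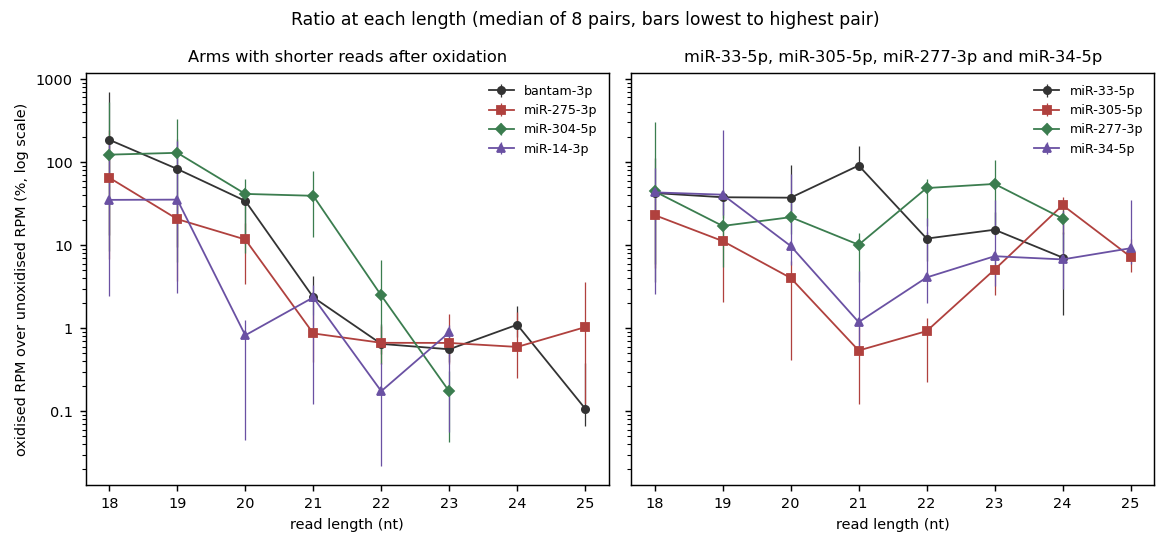
Oxidised over unoxidised RPM (%, log scale) at each read length, as the median of 8 pairs with the lowest and highest pair. Lengths at which a pair had no reads are not drawn. In the left panel the ratio falls steeply between 19 and 23 nt, and in the right panel it is highest at 21 nt for miR-33-5p, at 24 nt for miR-305-5p and at 23 nt for miR-277-3p, while miR-34-5p is lowest at 21 nt.

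The opposite shift, towards the full-length form, was largest in miR-305-5p, a guide that Nibbler is known to trim. It differed by 1.06 ± 0.04 nt (adjusted p = 1.09e-07, longer in 8 of 8 pairs), and its mean lengths of 23.7, 23.8 and 23.9 nt in oxidised libraries did not overlap 22.6, 22.8 and 22.9 nt in unoxidised libraries. Its 24 nt isoform had 626, 1251 and 1478 RPM in oxidised and 3452, 4396 and 4750 RPM in unoxidised libraries, a ratio of 28.4%. Its 21 nt isoform had 1.62, 8.78 and 14.4 RPM in oxidised and 1276, 1413 and 2121 RPM in unoxidised libraries, a ratio of 0.582%. The 22 nt isoform stood at 0.882% and the 23 nt isoform at 5.33%. The 24 nt form thus held 90.5% of the oxidised and 42.5% of the unoxidised reads (log2 odds 3.69 ± 0.13, adjusted p = 3.13e-08).

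Of the 7 Nibbler-trimmed arms 2 were longer (miR-305-5p and miR-263a-5p), 4 were shorter (miR-317-3p, miR-279-3p, miR-9c-5p and miR-190-5p) and miR-34-5p did not pass (median −0.22 nt, beside −0.15 nt over all 80). These shares, 28.6% longer and 57.1% shorter, stand beside 20% and 52.5% of all 80 arms. In miR-263a-5p the 24 nt form had 65.7, 78.7 and 176 RPM in oxidised and 44.5, 63.9 and 69.4 RPM in unoxidised libraries (149%), and the 22 nt form a ratio of 23.8%. The 24 nt share was 82.6% oxidised and 61.7% unoxidised (log2 odds 1.56 ± 0.12, adjusted p = 2.67e-06). MiR-34-5p, linked to ageing and neuronal integrity, had maxima on both sides of its 21 nt form. Its ratio was 59.1% at 19 nt, 15.6% at 20 nt, 1.60% at 21 nt, 5.75% at 22 nt, 10.3% at 23 nt and 8.83% at 24 nt. The 21 nt share was 8.93% oxidised and 38% unoxidised (log2 odds −2.68 ± 0.16, adjusted p = 5.27e-07), and the most frequent length was 24 nt oxidised and 21 nt unoxidised. Since short and long reads both gained share, its mean length of 21.7 ± 0.299 nt oxidised and 21.9 ± 0.137 nt unoxidised did not pass (−0.22 ± 0.11 nt, adjusted p = 0.0902). Its direction turned with reads of 20 to 25 nt alone (0.37 nt, adjusted p = 0.000844), and it passed as shorter without the 6 h pair (−0.31 nt, adjusted p = 0.0124). The oxidised 0 h library was the highest for this arm, with 286 RPM at 19 nt and 422 RPM at 24 nt, beside medians of 46.7 and 84.9 RPM. Without the 0 h pair the ratio was 36.5% at 19 nt, 9.41% at 20 nt, 1.19% at 21 nt, 3.54% at 22 nt, 6.67% at 23 nt and 5.96% at 24 nt.

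The shorter members of that list differed among themselves. MiR-317-3p kept its 18 nt reads, as bantam-3p did, with a ratio of 49.9% at 18 nt and 0.337% at 21 nt. Unlike bantam-3p, it was strongly depleted at 19 nt already, with 1.45 to 4.08 RPM in oxidised and 644 to 1146 RPM in unoxidised libraries. MiR-279-3p lost its 22 nt form (0.688%, 17.3 RPM oxidised and 2522 RPM unoxidised) more than its 21 nt form (5.67%, 127 RPM oxidised and 2236 RPM unoxidised), and its most frequent length was 21 nt oxidised and 22 nt unoxidised. In miR-190-5p abundance at a shorter length rose. Its 22 nt isoform had 51.9, 66.6 and 86.8 RPM in oxidised and 30.7, 32.9 and 40.6 RPM in unoxidised libraries, with no overlap (log2 0.97 ± 0.14, adjusted p = 7.87e-05), while its 24 nt form had a ratio of 54.6%. MiR-9c-5p, which has the seed of miR-9b-5p, had ratios of 102% at 21 nt, 62.0% at 22 nt and 22.3% at 23 nt.

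MiR-277-3p, a guide known to be shared between Argonaute1 and Argonaute2, differed by 0.39 ± 0.06 nt (adjusted p = 0.000415, longer in 8 of 8 pairs). Its 21 nt isoform had 35.2, 94.0 and 124 RPM in oxidised and 806, 957 and 1074 RPM in unoxidised libraries (9.38%). Its 23 nt isoform had 341, 865 and 1330 RPM in oxidised and 1068, 1782 and 2125 RPM in unoxidised libraries (51.4%), and its 22 nt isoform stood at 45.0%. The 21 nt reads did not overlap between the groups, whereas the 23 nt reads did. In miR-33-5p, hosted in an intron of SREBP, which regulates lipid synthesis, 1 length was kept better than its neighbours. The 21 nt form had a ratio of 105% (log2 0.03 ± 0.14, adjusted p = 0.866, higher in 3 of 8 pairs, 79.9% to 158% between pairs; scaled to miRNA reads, log2 2.56, limma adjusted p = 6.35e-09), beside 42.1% at 20 nt and 11% at 22 nt. Its share was 87.4% ± 1.56 oxidised and 67.4% ± 5.45 unoxidised (SD, n = 8).

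The other guides among the 8 largest increases also kept 1 or 2 lengths. In miR-988-3p the ratio was 50.1% at 22 nt and 11.7% at 21 nt. In miR-283-5p it was 33.5% at 23 nt and 4.66% at 22 nt, so that the 23 nt form held 84.6% of the oxidised and 49.5% of the unoxidised reads. In miR-12-5p it was 53.6% at 22 nt, 33.6% at 23 nt and 5.63% at 21 nt. Like mir-304, the hairpins of miR-283-5p and miR-12-5p lie in an intron of Gmap. MiR-2a-1-5p, a passenger with a difference of 0.25 ± 0.04 nt, stood at 125% at 22 nt and 46.3% at 21 nt. MiR-954-5p, chosen after its values were seen because it had the second largest increase, is rare (14.9 RPM oxidised and 17.6 RPM unoxidised), and its 21 nt form held 12.7% of the oxidised and 59.3% of the unoxidised reads.

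Arms known to be loaded into Argonaute2 in S2 cells are mostly passengers, and their differences ran from −1.19 nt in miR-34-3p to 0.39 nt in miR-277-3p. Their ratios as whole arms ran from 1.47% in miR-34-3p and 20.2% in miR-305-3p to 328% in miR-998-5p. That of miR-34-3p was near the 1.95% of the depleted guide bantam-3p. Loading of the listed arms was not tested here. Of 13 measured, 4 were longer (miR-277-3p, miR-276a-5p, miR-2b-2-5p and miR-13b-2-5p), 5 shorter (miR-14-5p, miR-184-5p, miR-2b-1-5p, miR-305-3p and miR-34-3p) and 4 did not pass (median 0.03 nt, beside −0.15 nt over all 80). Thus 30.8% were longer and 38.5% shorter, beside 20% and 52.5% of all 80 arms. The call of miR-276a-5p (0.05 nt, adjusted p = 0.0476) was lost when any pair other than the 6 h pair was left out (adjusted p from 0.0743 to 0.110). That of miR-2b-1-5p (−0.18 nt, adjusted p = 0.0353) was lost without the 0, 0.25, 3, 12 or 24 h pair (0.0697 to 0.0845). Bantam-5p, the passenger of the most abundant guide, did not pass in mean length (0.19 nt, adjusted p = 0.133), with 77.5% of the oxidised and 71.9% of the unoxidised reads at 23 nt and ratios of 211% at 23 nt, 165% at 22 nt and 202% at 21 nt. In miR-13b-2-5p the 24 nt form stood at 122% and the 22 nt form at 20.6%, and in miR-2b-2-5p the 23 nt form at 130% and the 22 nt form at 28.9%. That 23 nt form had 2680 RPM in the oxidised 0 h library, beside 447 to 1098 RPM in the other oxidised libraries. MiR-14-5p moved the other way. Its 19 nt isoform rose to 163 RPM in oxidised libraries, against 30.1 RPM in unoxidised libraries (543%, log2 2.07 ± 0.29, limma adjusted p = 4.25e-05). The oxidised 0 h library had 503 RPM at 19 nt, beside 67.7 to 249 RPM in the other oxidised and 21.5 to 38.4 RPM in the unoxidised libraries. Its 20 nt isoform rose to 204 RPM in oxidised libraries, against 72.2 RPM in unoxidised libraries, while its 22 nt form had a ratio of 63.0%. MiR-184-5p likewise had 129% at 21 nt and 44.0% at 22 nt. MiR-34-3p had ratios of 25.1% at 20 nt and 0.629% at 23 nt, a fall with length like that of the depleted guides, but on few reads. Its 20 nt isoform had 0.0235 to 6.61 RPM in oxidised and 3.83 to 25.6 RPM in unoxidised libraries, which overlapped. At 23 nt it had 0.141 to 6.96 RPM in oxidised and 563 to 939 RPM in unoxidised libraries. MiR-282-3p, a passenger named for the fall of its 21 nt share to 0.658% oxidised, against 6.63% unoxidised (log2 odds −3.40 ± 0.11, limma adjusted p = 3.13e-08), kept its 22 nt form at 158%. The 3 mirtron arms measured of 10 listed (miR-1003-3p, miR-1012-5p and miR-1012-3p) did not pass in mean length (0.10, −0.20 and −0.19 nt, adjusted p = 0.107, 0.151 and 0.0720), though miR-1012-3p did without the 6 h pair (−0.27 nt, adjusted p = 0.00302). With reads of 20 to 25 nt alone miR-1003-3p passed as longer (0.23 nt, adjusted p = 3.54e-05) and miR-1012-5p as shorter (−0.16 nt, adjusted p = 0.00431).

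The remaining abundant guides fell between these patterns. MiR-276a-3p had ratios of 158% at 18 nt (239% without the 6 h pair), 18.9% at 20 nt and 2.23% at 22 nt, and a difference in mean length of −0.75 nt. MiR-184-3p was longer by 0.15 nt, with 22.6% at 22 nt and 10.3% at 21 nt. These ratios rest in part on the oxidised 0 h library, and without the 0 h pair they were 11.3% and 4.56%. MiR-8-3p stood at 14.7% at 23 nt, 9.93% at 22 nt and 11.9% at 21 nt, and did not pass in mean length (−0.12 nt, adjusted p = 0.105), but passed without the 1 h pair (adjusted p = 0.0486) or the 6 h pair (0.0171). MiR-282-5p was depleted at every length, with 0.575% at 18 nt, 1.68% at 21 nt and 0.371% at 22 nt. It thus lacked the kept 18 nt reads of bantam-3p, and its mean length did not pass (−0.19 nt, adjusted p = 0.144), although it did without the 6 h pair (−0.27 nt, adjusted p = 0.0280) and with reads of 20 to 25 nt alone (−0.15 nt, adjusted p = 0.00193).

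Arms that were more depleted as a whole had the larger shortening. Among the 27 arms with under 10% of their RPM left, 23 were shorter and none was longer (median −1.19 nt). Among the 34 arms with 10% to 100% left, 16 were shorter and 10 longer (median −0.11 nt), and among the 19 with 100% or more, 3 were shorter and 6 longer (median 0.03 nt). Shorter arms thus made up 85.2%, 47.1% and 15.8% of these classes, beside 52.5% of all 80 arms, and longer arms 0%, 29.4% and 31.6%, beside 20%, so the middle class was near the share over all arms. The measures are not independent, because both are made from the same reads. A few depleted arms changed little, such as miR-965-3p, with 1.2% left and a difference of −0.07 nt.

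**Figure D4:**
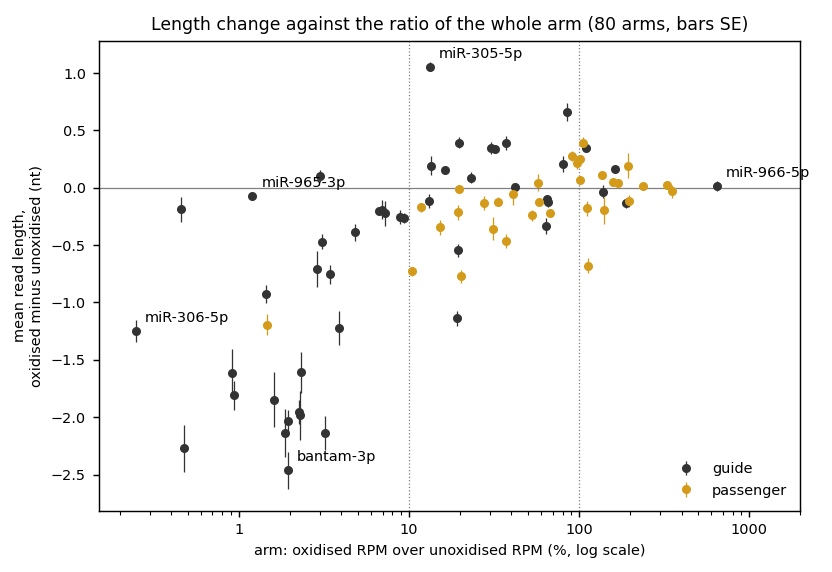
Difference in mean read length (nt, oxidised minus unoxidised, with SE) against the ratio of the whole arm (oxidised over unoxidised RPM, %, log scale) for 80 arms. Dotted lines mark 10% and 100%. Most guides left of 10% lie below 0, and miR-305-5p is the highest point.

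A ratio for the whole arm therefore mixed isoforms with different ratios. At the reference length the ratio was lower than that of the arm in 48 of 80 arms, by over 1.5 times in 23 and by over 2 times in 18, of which 15 were guides. It was higher by over 1.5 times in 4, all guides. Among 63 arms with at least 2 isoforms of 5 RPM or more in both groups, the highest ratio within an arm was 4.70 times the lowest in the median (8.04 times over 40 guides and 3.37 times over 23 passengers). It was 10 times or more in 20 arms and under 2 times in 10. The widest was miR-2b-1-3p, 0.371% to 96.6%, of which the upper value is that of the 18 nt reads shared between arms (152% without the 6 h pair). With shared reads left out, miR-2b-1-3p ran from 0.371% to 10.1%, bantam-3p was the widest (187 times, or 296 times without the 6 h pair) and 18 of 62 arms reached 10 times.

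Across isoforms, 428 had a mean of at least 5 RPM over the 16 libraries, of 1040 possible ones of 18 to 30 nt. The share of the arm rose in 158 isoforms (36.9%) and fell in 166 (38.8%), so 75.7% were called (limma on log2 odds with 0.5 RPM added, adjusted p under 0.05). Of the 428, 132 reached 5 RPM only in the unoxidised group and 8 only in the oxidised group. Isoforms close to 0 RPM after oxidation take their odds from the added 0.5 RPM: of the 158 rises, 14 had the opposite sign in edgeR with the arm total as offset, which called 77.1% of the isoforms, 138 as rises (32.2%) and 192 as falls (44.9%). The 20 isoforms named for their size of change kept their direction there. With at least 5 RPM in both groups, 116 of 288 rose (40.3%) and 114 fell (39.6%), 79.9% in all. Abundance rose in 36 of the 428 (8.41%) and fell in 320 (74.8%), 83.2% in all. The 132 isoforms that reached 5 RPM only in the unoxidised group were bound to be lower after oxidation, and of the 288 with 5 RPM in both groups 31 rose (10.8%) and 191 fell (66.3%), 77.1% in all. Scaled to miRNA reads instead, which shifts the median isoform from −2.55 to −0.15 on the log2 scale, 157 rose (36.7%) and 187 fell (43.7%), 80.4% in all.

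By length, guides and passengers had different counts. The counts here are of the 288 isoforms with at least 5 RPM in both groups, of which 39.6% rose and 38.2% fell in share (77.8% in all) with p-values adjusted over all 428. At 18 nt the share of the arm rose in 17 of 24 guide isoforms and fell in 2 (median log2 odds 3.49), at 19 nt it rose in 14 of 21 and fell in 2, and at 20 nt it rose in 16 of 28 and fell in 8. At 22 nt it rose in 8 of 34 guide isoforms and fell in 20, and at 24 nt it rose in 3 of 13 and fell in 10. Passengers had no rise and 2 falls among 4 isoforms at 18 nt and 1 rise and 5 falls among 10 at 19 nt. At 21 nt 11 of 22 passenger isoforms rose and 6 fell, and 16 of 36 guide isoforms rose and 14 fell. The difference between guides and passengers was not tested.

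Counted from the reference length of each arm, guide isoforms 3 nt shorter were kept better than the reference form by a median log2 of 3.14 over 35 arms, 23 of them above 0 and 12 below, and the median ran from 0.10 to 3.90 between pairs. At 1 nt shorter the median was 0.53 over 46 guides and at 1 nt longer 0.05 over 39. In passengers the median was −0.91 at 3 nt shorter over 18 arms (4 above and 14 below), 0.17 at 1 nt shorter over 28 and −0.33 at 1 nt longer over 18. The range among guides at 3 nt shorter was wide, −5.66 to 7.58, and holds both miR-305-5p and the bantam-3p type. With 5 RPM in both groups for both isoforms, the median of guides was 2.94 at 3 nt shorter (22 arms, 14 above and 8 below), 0.40 at 1 nt shorter (37 arms) and −1.18 at 1 nt longer (19 arms), where it changed sign.

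In the sum over the 80 arms the oxidised libraries were shifted to 21 nt. That length held 28.4% to 34.5% of the reads in oxidised and 12.5% to 15.4% in unoxidised libraries, higher in 8 of 8 pairs, and 23 nt held 15.6% to 21.4% in oxidised and 29.1% to 33.3% in unoxidised libraries. The groups did not overlap at either length. Much of the difference in this sum lay in which arms remained. When the unoxidised profile of each arm was weighted by its oxidised abundance, 21 nt came to 27.8% ± 2.86 and 23 nt to 20.02% ± 1.71 (SD, n = 8). The oxidised libraries had 30.8% ± 1.89 and 18.5% ± 2.47, and the unoxidised libraries 14.0% ± 0.994 and 31.2% ± 1.24. With each arm given equal weight, 21 nt held 22.1% ± 0.563 of the oxidised and 20.8% ± 0.41 of the unoxidised reads. The 18 nt share was then 5.86% ± 1.13 oxidised and 1.51% ± 0.894 unoxidised, higher in 8 of 8 pairs.

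**Figure D5:**
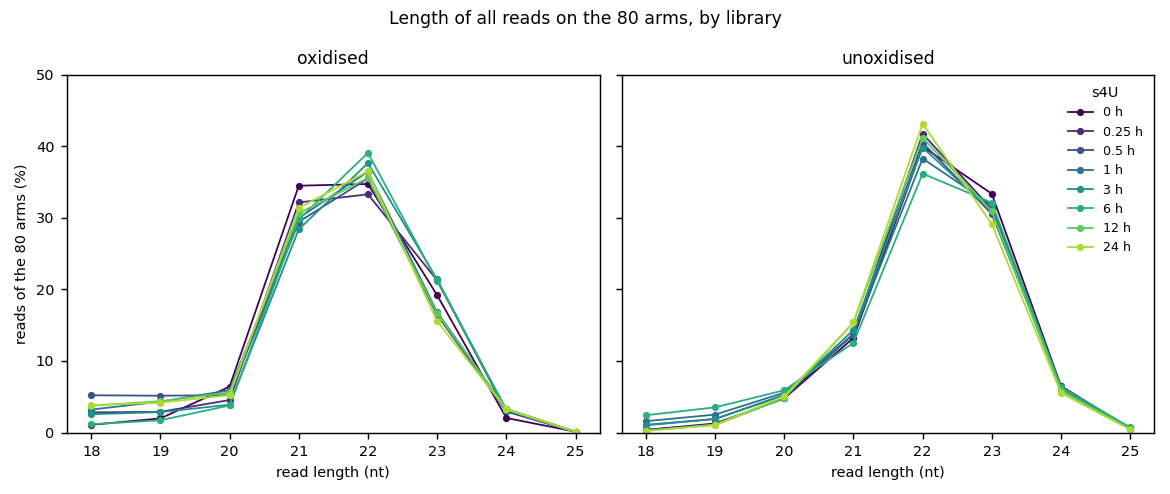
Share of the reads of the 80 arms (%) at 18 to 25 nt in each of the 8 oxidised (left) and 8 unoxidised (right) libraries, coloured by labelling time. The oxidised libraries hold 28.4% to 34.5% at 21 nt, above all unoxidised ones (12.5% to 15.4%). Both which arms remained and the lengths within arms enter these shares.

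Reads of 18 and 19 nt varied between libraries of both groups. They made up 2.87% to 10.3% of the reads in oxidised libraries and 1.30% to 5.93% in unoxidised ones, with the highest unoxidised share at 6 h and the highest oxidised share at 0.5 h. In RPM they were fewer after oxidation, at 2118 to 8428 RPM in oxidised and 6656 to 29894 RPM in unoxidised libraries. The part of this variation in the ratios at 18 and 19 nt was not tested.

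Bases other than the hairpin's were less frequent after oxidation in most arms at every nucleotide from 18 to 25. Reads of every length that reaches a nucleotide are counted there, so these values do not separate short from long reads. They were less frequent in 77 of 80 arms at nucleotide 18 (median 0.0693% oxidised and 0.263% unoxidised), in 75 of 79 at nucleotide 20, in 60 of 76 at nucleotide 22, in 42 of 63 at nucleotide 23 and in 23 of 36 at nucleotide 24, where the median was 15.7% oxidised and 37.0% unoxidised (T-to-C changes left out, reads pooled over 8 libraries, no test). In miR-305-5p 14.3% of oxidised and 31% of unoxidised bases at nucleotide 25 were not those of the hairpin, and in miR-34-5p 10.3% and 32.8%. At nucleotide 22 of miR-33-5p, just beyond its kept 21 nt form, the values were 7.24% oxidised and 25.0% unoxidised, and at nucleotide 24 of bantam-3p 2.60% and 13.7%. Each of these was lower in 8 of 8 pairs. MiR-9c-5p went against this at nucleotide 23, with 79.4% oxidised and 23.7% unoxidised.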

How the data were processed

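Small RNA of 18 to 30 nt was selected and ligated to adapters with 4 random bases, per the labels' protocols. The submitters' processing notes name dm6, Bowtie 1.2.2, cutadapt 1.7.1 and Picard. Not given in the sources used here is how each was set. Whether reads were collapsed by these random bases is not given in the sources used here, so RPM may count reads or molecules. The deposited length tables hold a signal in RPM per arm, start and read length. Multiplied by the deposited counts of small RNA reads, 100% of the 36559 values were whole reads (tolerance 0.001). The deposited mismatch tables hold counts of each base at each position, 97 arms oxidised and 135 unoxidised. Of 86 arms in both, 84 had the same start and 4 copies were left out. The length of a read includes bases that do not match the hairpin. A read that fits several arms is counted under each.

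Mean read length per arm, log2 odds of an isoform against the other reads of its arm, and log2(RPM + 0.5) were tested with limma 3.58.1 in R 4.3.3, with labelling time as a block, because the labels say that each RNA was split between the groups. The 0.5 RPM added for abundance understates changes of rare isoforms. Added to both terms of the odds, it can also overstate such changes or turn their direction. Alternatives used edgeR 4.0.16, DESeq2 1.42.0, other filters, scalings and lengths, and left out each pair. The share test on reads of 20 to 25 nt, the abundance test on them, the filter of 5 RPM in both groups, ratios without 1 pair, ratios within an arm without shared reads or the 6 h pair, and the counts of abundance and the distances from the reference length at 5 RPM in both groups were added after the data were seen. The tests were tested on simulated data. Descriptions and figures were made in Python 3.11.15 (matplotlib 3.10.9, scipy 1.17.1, pandas 2.3.3, numpy 2.4.6). Coordinates are from BDGP6, the dm6 assembly.

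The members, lists and tests were chosen with earlier results of these data known. Named arms are those with a called mean length and 100 RPM or more in 1 group that had the 8 largest increases or decreases, the 10 arms of highest unoxidised RPM, and the measured list members. Named isoforms are the 10 largest rises and 10 largest falls in share with at least 100 RPM, and those with at least 5% of a named arm. MiR-954-5p and miR-965-3p, and miR-33-5p outside its 22 nt form, were chosen after their values were seen. Sequences on chromosome arm 2R are not shown.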

Additional observations from a re-analysis of the deposited data

Results flagged for a closer look

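In 86 groups of 8 libraries (43 named arms, each oxidised and unoxidised), the mean read length of 1 library lay far from the other 7 by Dixon's test in 10, where chance gives about 1 in 20. All 10 involve the oxidised 0 h or the unoxidised 6 h library. In the oxidised 0 h library the mean length was 20.4 nt for miR-1012-5p (others 21.2 to 21.3), 23.01 nt for miR-13b-2-5p (23.2 to 23.3), 20.4 nt for miR-14-5p (20.81 to 21), 21.9 nt for miR-2a-1-5p (21.7 to 21.8) and 20.8 nt for miR-308-3p (18.99 to 19.58). In the unoxidised 6 h library it was 21.1 nt for miR-1012-5p (21.3 to 21.5), 21.9 nt for miR-12-5p (22.2 to 22.4), 21.9 nt for miR-275-3p (22.3 to 22.6), 21.3 nt for miR-2a-1-5p (21.5 to 21.7) and 22.02 nt for miR-308-3p (21.6 to 21.8). The oxidised 0 h library also had the highest share of miRNA reads of its group, 13.2%, and the unoxidised 6 h library the highest share of 18 and 19 nt reads of its group, 5.93%. Without the 0 h or the 6 h pair each of these arms kept its direction.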

How the results depend on the processing

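The counts of arms kept within 1.5 times of 16 longer and 42 shorter under each alternative run, except with at least 100 RPM in both groups (41 arms tested), where 17 were shorter. Without the replicate block 19 arms were longer and 44 shorter, 162 isoforms rose and 168 fell in share, and 35 rose and 319 fell in abundance. Leaving out 1 pair gave 15 to 16 longer and 39 to 49 shorter arms, 150 to 164 rises and 153 to 169 falls in share, and 31 to 42 rises and 305 to 324 falls in abundance. With a filter of 50 RPM (227 isoforms) 84 rose and 105 fell in share. Abundance depends on scaling: 157 rose and 187 fell per miRNA read, 150 and 200 with edgeR and TMM, and 169 and 194 with DESeq2. Relative to the reference length the median over all arms moved to 2.88 at 3 nt shorter and 0.61 at 1 nt shorter with a filter of 50 RPM, beside 0.09 and 0.42. At 1 nt longer it turned to 0.075, beside −0.24, with 2 RPM added. At 2 nt longer it turned to 1.19, beside −0.15, with 2 RPM added, to 0.096 with the unoxidised reference length and to 0.17 with 50 RPM. Among named arms, reads of 20 to 25 nt alone turned miR-34-5p (0.37 nt), miR-8-3p (0.022), miR-2a-2-5p (−0.037), miR-8-5p (−0.072) and miR-998-5p (−0.051). Leaving out 1 pair gave −0.015 (6 h) to 0.071 nt for miR-8-5p. None of these 5 passed with reads of all lengths and all pairs. The cause of these changes was not tested. The oxidised libraries held 1270 reads or more of each arm in all, which limits isoforms of depleted arms most.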
